A study of Mus musculus with 30 samples.

Results

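The comparison described here is between Th1 cells that expressed an interleukin 10 (IL-10) reporter and Th1 cells that did not. Its members are the 3 IL-10 positive and the 3 IL-10 negative libraries whose titles name Th1, 6 of the 30 RNA-seq libraries of the series. The other 24 libraries are the same pair of compartments from Th2, Tr1, Th17 and pathogenic Th17 (pTh17) cultures. They serve here to share the estimate of spread and to test where the Th1 difference departs from theirs. In both Th1 groups the cells were of the C57BL/6 strain and carried a Foxp3-GFP reporter and an IL-10 reporter that puts the surface protein Thy1.1 on cells with an active Il10 locus. Naive CD4 T cells, sorted as CD44 negative and GFP negative, were stimulated with soluble anti-CD3 at 2.5 ug/ml. Irradiated spleen cells depleted of CD4 T cells were added at a ratio of 1 T cell to 6, and IL-12 at 20 ng/ml was the polarising cytokine. At 72 h, living GFP-negative T cells were sorted by Thy1.1, and 2000 cells went into each library. The sorting text of the labels gives Thy1.1 positive for both compartments, so the titles were followed. Nothing in the labels tells whether the replicates are separate animals or cultures. The p-values therefore speak only of the variation among these samples, which may be technical.

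Th1 cells are helper T cells that arise when IL-12 and interferon gamma act on an activated CD4 T cell, and they direct macrophages and killer cells against microbes inside cells. The transcription factor T-bet sets their programme, and interferon gamma is their main cytokine. IL-10 is a cytokine that restrains macrophages, dendritic cells and T cells. Th1 cells can make IL-10 together with interferon gamma late in a strong response, which is known to limit tissue damage during infection.

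Library totals were 7540038, 9434381 and 8398751 expected counts in the IL-10 positive libraries (replicates 4, 5 and 6, the order of all values below) and 5465169, 6612699 and 7466395 in the negative ones. Levels are given in CPM, counts scaled to a common library total after TMM adjustment. The reads carry no molecular identifiers. Replicates of a group had correlations of log CPM from 0.992 to 0.996, and each pair differed by more than counting noise, with chi-square per degree of freedom from 2.95 to 9.26. The first principal component held 83.3% of the variance of the 6 libraries and separated the compartments. IL-10 negative replicate 4 stood apart on the second component, at -17.1 where the other 5 libraries lay between -2.64 and 8.73. The 10 highest genes took 17.2% to 18.7% of counts in positive libraries and 22.2% to 26.5% in negative ones. The highest of them was Rn45s, the gene of the ribosomal RNA precursor. It had 132800, 125100 and 112600 CPM in positive against 242100, 189100 and 177900 CPM in negative libraries. Its part in the results below was not tested, but scaling without Rn45s, Kcnq1ot1 and Zfp488, a choice made after the data were seen, moved the median of all genes by 0.04 (log2).

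The cells carried the markers of their label. Of 9 CD4 T cell markers all were detected, with summed levels of 6940 to 7170 CPM in IL-10 positive and 6470 to 6850 CPM in negative libraries. The 8 Th1 markers summed to 2180 to 2320 CPM in positive and 1390 to 1430 CPM in negative libraries. Some markers of other cells differed between the compartments too. The counts below stand against 23.5% of all tested genes called higher and 20.4% called lower. The B cell list summed to 43.1 to 54.2 CPM in positive and 15.5 to 19.9 CPM in negative libraries, led by H2-Ab1. Only 2 of its 11 tested genes, Cd74 and H2-Ab1, were called higher, and Pax5 was at 0 in all 6 libraries. The monocyte and macrophage list summed to 69.0 to 78.8 CPM in positive and 17.1 to 24.1 CPM in negative libraries, led by the integrin Itgam. Only 2 of its 7 tested genes, Itgam and Tyrobp, were called higher, and Lyz1 was at 0 in all 6. The dendritic cell list summed to 38.4 to 44.0 CPM in positive and 21.0 to 24 CPM in negative libraries, with 3 of 5 called higher. The NK cell list summed to 124 to 131 CPM in positive and 22.6 to 24.6 CPM in negative libraries, led by Klrk1, with 4 of 5 called higher. The CD8 T cell list summed to 30.3 to 36.5 CPM in positive and 20.0 to 27.6 CPM in negative libraries, with both Cd8a and Cd8b1 called higher. The regulatory T cell list went the other way, at 56.7 to 61.8 CPM in positive and 64.5 to 72.6 CPM in negative libraries. Of its 5 tested genes 1 was called higher and 2 lower. Of 3 tested plasma cell genes 0 were called. The neutrophil and basophil list summed to at most 0.483 CPM and the erythroid and platelet list to at most 1.47 CPM in any library. The part of such cells in the results was not tested. In bulk RNA, fewer cells of a type and less RNA per cell cannot be told apart, and neither can a shift in every cell and a change in the mix of cells.

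Il10 and Thy1 define the sort and are given as a description. Il10, on chromosome 1 from 131019845 to 131024970 of the mm10 (GRCm38) assembly, had 389.5, 365.5 and 386.3 CPM in IL-10 positive against 6.43, 4.51 and 6.25 CPM in IL-10 negative libraries. Thy1, of which the reporter protein is an allele, had 1176, 1187 and 1309 CPM in positive against 179.3, 158.7 and 168.9 CPM in negative libraries. Both genes followed the titles in all 6 libraries.

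The first question was how much of the expressed genome differed. Of 12611 genes tested with edgeR's quasi-likelihood test in one fit of all 30 libraries, 5529 were called at an adjusted p under 0.05, which is 43.8% of them. IL-10 positive libraries were higher for 2962 genes (23.5%) and lower for 2567 (20.4%). Many differences were small, with 2588 of the 5529 calls under 1.5-fold. By at least 2-fold, 906 genes (7.18%) were higher and 593 (4.70%) lower, and by at least 8-fold 121 and 64. The 3 libraries of one compartment did not overlap those of the other for 6481 genes (51.4%). Lack of overlap was therefore common, and it was a condition of naming genes by largest change. Stability could be shown for few genes, since among 6405 genes at 20 CPM or more only 249 (3.90%) had a 95% interval of the log2 fold change within 0.2 of 0. Among the most abundant of these were Hspa8, a cytosolic chaperone, at -0.06 ± 0.05 (log2, SE), the class I molecules H2-D1 (-0.01 ± 0.05) and B2m (0.01 ± 0.06), the T cell kinase Lck (0.07 ± 0.05) and the actin-binding protein Coro1a (-0.03 ± 0.05). Of all calls, 4263 were in none of the 56 gene lists used below.

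**Figure D1:**
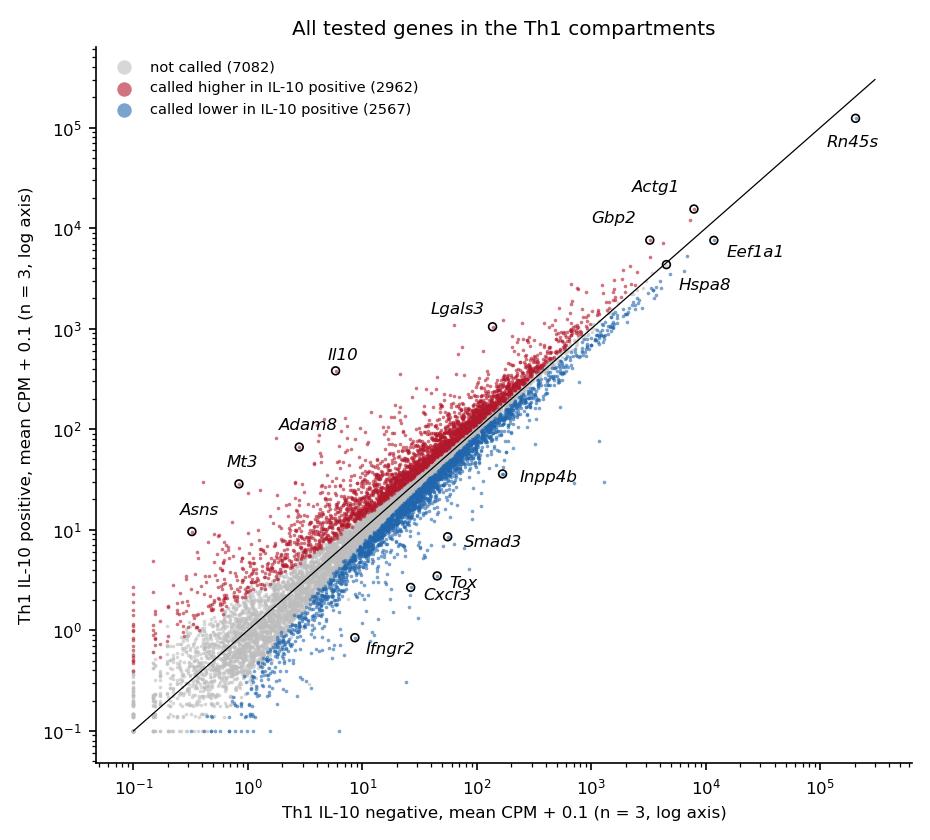
Mean CPM plus 0.1 of 12611 tested genes in Th1 IL-10 negative libraries (x axis) and IL-10 positive libraries (y axis), 3 libraries each, on log axes, with the diagonal marking equal levels. Red points (2962) were called higher and blue points (2567) lower in IL-10 positive libraries. The called genes lie along the whole range of expression, and Il10, Mt3 and Asns lie far above the diagonal, Ifngr2, Cxcr3 and Tox far below it.

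Genes with large gains came from several unrelated families, of which examples follow. Asns and Mt3, which rose more than these, are described further below. Miat, a long noncoding RNA, had 22.3, 22.6 and 24.2 CPM in IL-10 positive against 1.45, 0.966 and 0.284 CPM in negative libraries (log2 fold change 4.75 ± 0.41, SE; edgeR adjusted p = 2.19e-12). Serpina3f, a protease inhibitor, had 29.4, 22.3 and 22.6 CPM in positive against 1.66, 1.45 and 0.426 CPM in negative libraries (log2 4.45 ± 0.33). Ifi204, a DNA-binding protein of the interferon-inducible p200 family, had 88.0, 89.9 and 86.3 CPM in positive against 4.77, 3.54 and 3.98 CPM in negative libraries. In each of these genes every positive library was above every negative one, which was a condition of naming genes by largest change. Adam8, a surface metalloprotease, differed by 4.6 ± 0.21 and Ifitm1, an antiviral membrane protein, by 4.26 ± 0.23 (log2, SE). Mapkapk2, the kinase downstream of p38, stood at 555.8, 555.9 and 577.5 CPM in positive against 74.7, 68.4 and 60.9 CPM in negative libraries and was the most abundant of the genes named in this paragraph. A further 10 genes averaged under 0.5 CPM in negative and at least 5 CPM in positive libraries. They included Styk1, a pseudokinase (5.32, 5.09 and 5.14 CPM in positive against 0.208, 0.161 and 0.426 CPM in negative libraries), Arhgef10l, a guanine nucleotide exchange factor (6.91, 6.68 and 8.52 CPM in positive against 0.415, 0.483 and 0.142 CPM in negative libraries), and Mecom, a zinc finger transcription factor. Mecom differed by 4.10 ± 0.55 (log2), or by 4.93 without IL-10 negative replicate 6.

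Large losses were also found outside the best-known resting cell genes. Tns4, a focal adhesion protein, had 1.15, 1.02 and 1.5 CPM in IL-10 positive against 28.9, 29.3 and 33.1 CPM in negative libraries (log2 fold change -4.62 ± 0.25; edgeR adjusted p = 2.68e-18). Asph, an oxygenase of the endoplasmic reticulum, had 1.15, 1.70 and 2.00 CPM in positive against 22.4, 26.7 and 27.7 CPM in negative libraries. The groups were far apart for both, and lack of overlap was again a condition of such naming. Pou2af1, a coactivator of octamer-binding factors best known in B cells, differed by -3.87 ± 0.33, or by -4.69 without IL-10 positive replicate 5. The summed B cell markers lay in the other direction, as given above. Tespa1, which supports T cell receptor signalling in thymocytes, fell by 3.81 ± 0.31 and Lrig1, a feedback inhibitor of growth factor receptors, by 3.49 ± 0.26 (log2, SE). Tox, a nuclear factor linked to long-term T cell stimulation, lies on chromosome 4 from 6686353 to 6991557. It had 5.18, 3.06 and 1.88 CPM in positive against 49.4, 45.6 and 39.6 CPM in negative libraries (log2 -3.75 ± 0.16). Co-inhibitory receptors did not share its direction: Tigit and Entpd1 differed by 2.56 ± 0.11 and 2.54 ± 0.11, and the list had 11 genes higher and 5 lower of 22 tested.

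**Figure D2:**
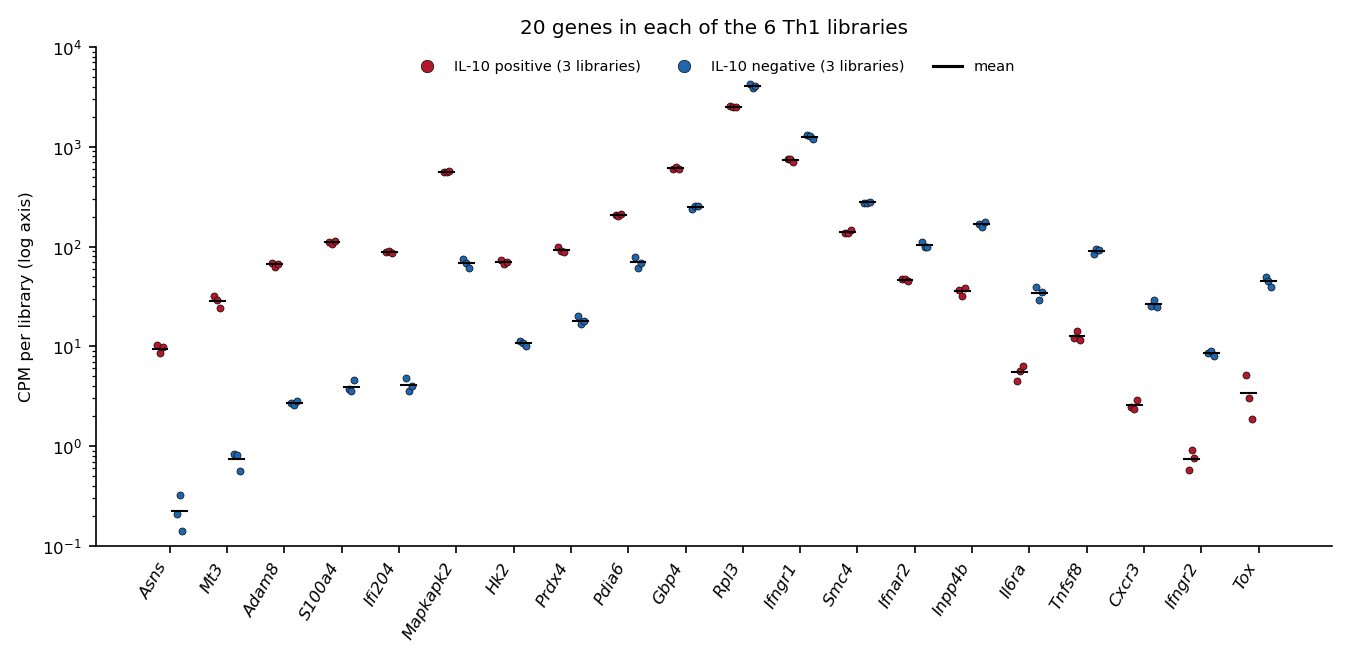
CPM on a log axis for 20 named genes in each Th1 library, with the 3 IL-10 positive libraries (red) left of the 3 IL-10 negative libraries (blue) and a black line at each group's mean. The groups do not overlap for any of these 20 genes, and replicates of a group lie closer together than the groups. Lack of overlap was a condition of naming genes by largest change, so it is not separate evidence for those genes.

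The gene lists that moved together are best read against all tested genes, of which 23.5% were called higher and 20.4% lower with a median log2 fold change of -0.02. At one end stood mitosis (66 of 69 higher), cholesterol synthesis and uptake (24 of 26), DNA replication (50 of 55), protein folding and secretion (33 of 38), the proteasome (27 of 33) and cytotoxic granules (20 of 23). At the other end stood the cytosolic ribosomal proteins (75 of 81 lower), the NF-kappa B pathway (13 of 22 lower) and the transcription factors of resting T cells (15 of 27 lower). The lists were written with results of these samples known, so their direction is not independent evidence.

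**Figure D3:**
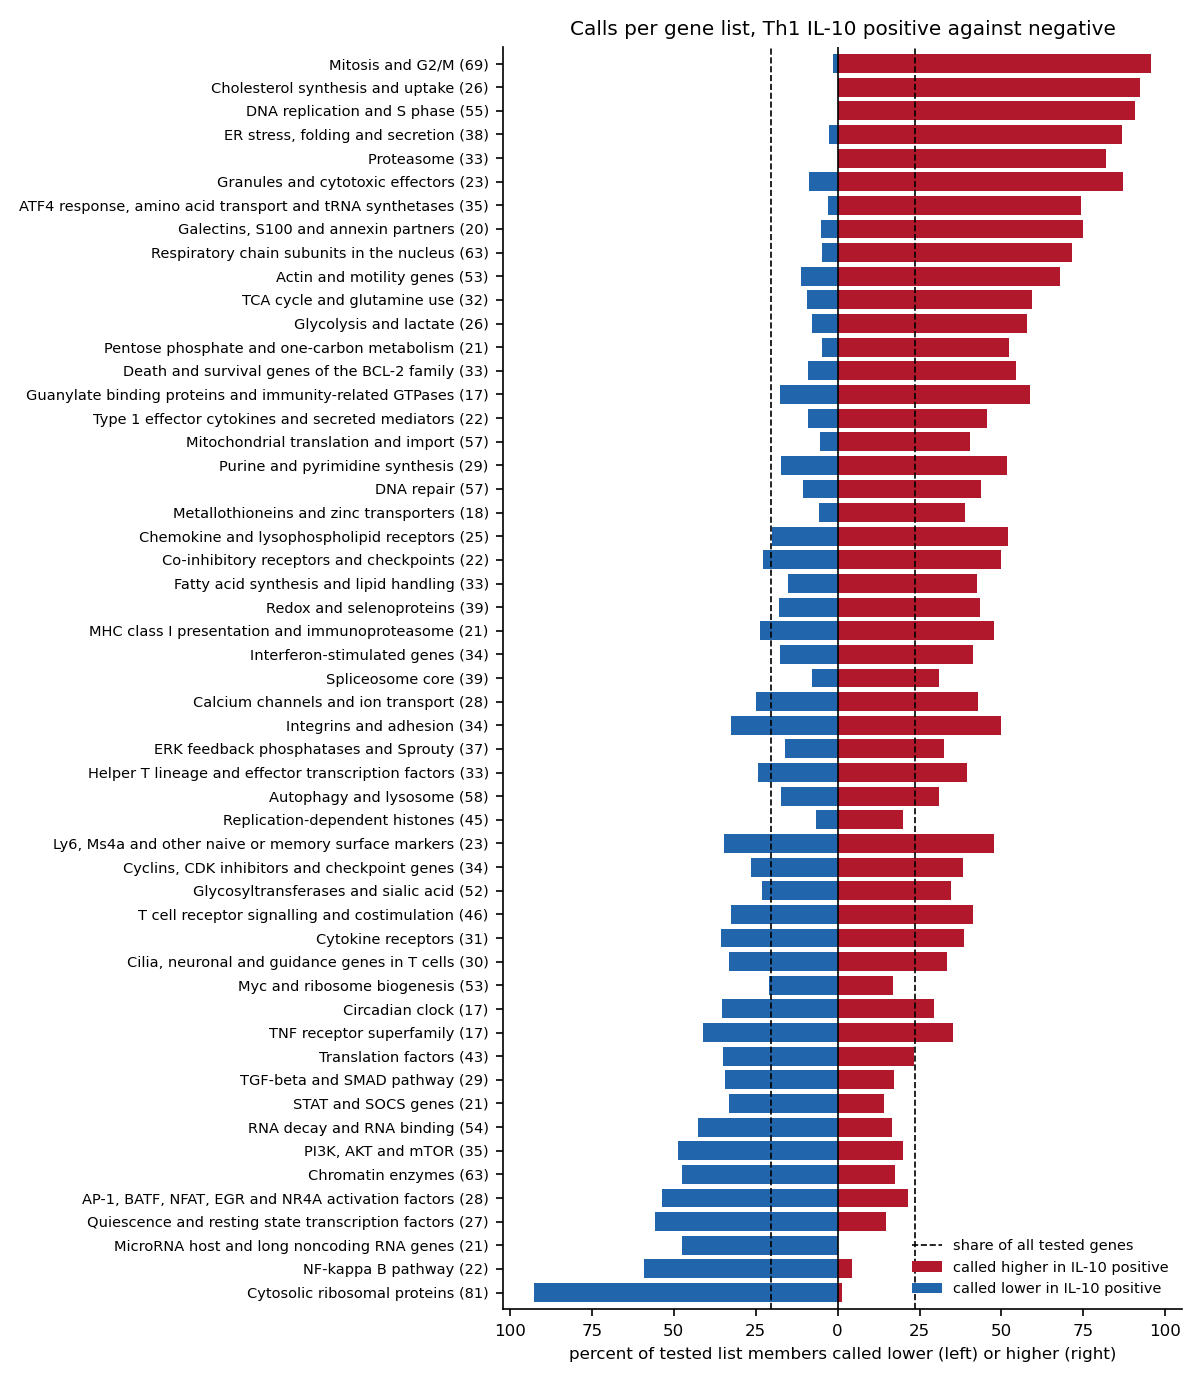
For each list with at least 15 tested genes (number in brackets), the percent of tested members called lower in Th1 IL-10 positive libraries (blue, left) and called higher (red, right), with dashed lines at the shares of all tested genes. Ribosomal proteins and mitosis genes lie at the ends, and the lists in the middle were called in both directions.

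Secretory pathway genes rose nearly as a block. The endoplasmic reticulum folds secreted and surface proteins with chaperones, disulfide isomerases and export coats, and T cells that make cytokines enlarge this machinery. Of 38 genes tested 33 were higher and 1 lower, with a median log2 fold change of 0.73. Pdia6, a disulfide isomerase, had 207.7, 202.1 and 212.3 CPM in IL-10 positive against 78.0, 61.2 and 68.5 CPM in negative libraries. The log2 difference was 1.59 ± 0.08 (SE; edgeR adjusted p = 1.46e-18), and the groups did not overlap. Sdf2l1, a chaperone cofactor, rose by 1.59 ± 0.13, the lumenal chaperone Hsp90b1 by 1.40 ± 0.06, the export coat gene Sec24d by 1.26 ± 0.12 and Creld2, a stress-induced folding factor, by 1.17 ± 0.11. Hspa5, the central chaperone of the compartment (BiP), rose less, by 0.81 ± 0.05. The single gene called lower was Dnajb9, a BiP cofactor and a well-known target of the stress factor XBP1, at 29.4, 27.6 and 25.7 CPM in positive against 36.5, 46.7 and 41.3 CPM in negative libraries (-0.60 ± 0.11). Its libraries did not overlap between the compartments. The lumenal peroxiredoxin Prdx4, which helps to form disulfides, rose by 2.35 ± 0.11, and Furin, a Golgi protease that processes secreted proteins, by 1.41 ± 0.06.

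The CCAAT box is the core of the classic ER stress element. CCAAT, on either strand within 250 bases before the start site, was present in 21 of 29 promoters that matched by symbol (72.4%), against 37.2% of 9365 promoters of tested genes and 40.2% of those called higher. CCAAT was as frequent in the promoters of the cholesterol list, in 15 of 18 (83.3%). The windows around the match nearest the start site in the 4 genes of largest rise are shown with the box in capitals (read as CCAAT or its reverse ATTGG), 5′ to 3′ along the gene's strand, from RefSeq's promoters of GRCm38.p6. They are chr16:17132390-17132424 (minus strand), chr12:17266476-17266510 (plus), chr10:86705518-86705552 (minus) and chr3:123267307-123267341 (plus).
Sdf2l1: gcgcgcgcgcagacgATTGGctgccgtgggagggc
Pdia6: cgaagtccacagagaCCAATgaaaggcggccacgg
Hsp90b1: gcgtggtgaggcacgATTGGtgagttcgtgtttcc
Sec24d: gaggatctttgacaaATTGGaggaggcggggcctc
Such matches are a description of letters, and the box is common in promoters of all kinds.

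Amino acid supply and the enzymes that load transfer RNAs rose as well. The factor ATF4 is made when amino acids are short or the endoplasmic reticulum is under stress, and it drives genes for amino acid synthesis, import and tRNA charging. Of 35 genes tested 26 were higher and 1 lower, with a median log2 fold change of 0.49. Asns, which makes asparagine, lies on chromosome 6 from 7675165 to 7693209. It had 10.2, 8.49 and 9.77 CPM in IL-10 positive against 0.208, 0.322 and 0.142 CPM in negative libraries (log2 5.32 ± 0.48, SE; edgeR's quasi-likelihood adjusted p = 5.65e-12). The gene was near the floor of detection in every negative library and above 8 CPM in every positive one. The tRNA synthetases Cars and Aars, for cysteine and alanine, rose by 1.31 ± 0.11 and 1.24 ± 0.09. The arginine importer Slc7a1 rose by 0.94 ± 0.14 and the serine synthesis enzyme Phgdh by 1.48 ± 0.10. Slc38a1, a glutamine carrier, was the only gene of the list called lower, at 80.0, 87.6 and 82.8 CPM in positive against 142.4, 118.0 and 120.0 CPM in negative libraries.

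The ATF4 element, searched as TGATGNAA on either strand, was present in 6 of 23 matched promoters of the list (26.1%) and in 2.1% of all 9365. It was present in 2.2% of promoters of all genes called higher and 1.4% of those called lower. The windows of 5 of them, 5′ to 3′ along the gene with the match in capitals, lie at chr6:7693210-7693247 (minus), chr2:119351034-119351071 (plus), chr6:55037956-55037993 (plus), chr3:50443638-50443675 (minus) and chr15:11399659-11399688 (minus). A run of capitals at the edge of the Slc7a11 window belongs to a neighbouring match.
Asns: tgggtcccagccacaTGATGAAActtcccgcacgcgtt
Chac1: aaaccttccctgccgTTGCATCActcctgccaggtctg
Gars: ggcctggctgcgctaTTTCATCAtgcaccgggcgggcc
Slc7a11: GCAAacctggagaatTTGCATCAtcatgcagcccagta
Tars: gggccaggagtcccgTTGCATCAgctggtt
In Asns the match ended 16 bases before the start site, and in Tars 8 bases before it, while in Chac1, a glutathione-degrading enzyme, it lay 186 bases before it.

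While the secretory genes rose, the genes of the ribosome itself fell. Ribosomal protein mRNAs are among the most abundant of a growing cell and are held together at the level of translation by a pyrimidine-rich start. Of 81 tested 75 were lower and 1 higher, with a median log2 fold change of -0.49. Rpl3, of the large subunit, had 2557, 2513 and 2477 CPM in positive against 4288, 3898 and 4019 CPM in negative libraries (log2 -0.69 ± 0.06, SE; edgeR's quasi-likelihood adjusted p = 5.34e-13). Rps28 had 333.3, 299.9 and 301.4 CPM in positive against 554.1, 499.2 and 513.7 CPM in negative libraries. No library of one compartment reached the other for either gene. The one member called higher was Rps27l, a paralog of Rps27 that p53 induces, at 107.6, 97.4 and 103.3 CPM in positive against 60.4, 47.7 and 50 CPM in negative libraries (0.97 ± 0.10). Counts assigned to Rn45s were lower too (-0.72 ± 0.14), but whether they measure the precursor itself was not tested. The list kept 75 genes lower when Rn45s, Kcnq1ot1 and Zfp488 were left out of the scaling, and 74 or 75 when any 1 Th1 library was left out.

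Other parts of the translation apparatus were called both ways, with the share called higher near that of all tested genes. The elongation factor Eef1a1, with the same kind of start as the ribosomal proteins, had 7810, 7501 and 7330 CPM in IL-10 positive against 11560, 11590 and 12110 CPM in negative libraries (log2 fold change -0.64 ± 0.05). Eef1b2, Eif3e and Eef2 fell by 0.60 ± 0.06, 0.64 ± 0.06 and 0.37 ± 0.05. Eif2s1 and Eif1a, of the initiation step, rose by 0.51 ± 0.08 each. Pdcd4, an inhibitor of the helicase eIF4A, fell most of the 43 translation factors (-1.61 ± 0.10). Of these factors 10 were higher (23.3%) and 15 lower (34.9%), against 23.5% and 20.4% of all tested genes. Npm1, a nucleolar protein of ribosome assembly, fell by 0.52 ± 0.06. The 53 genes of the Myc and ribosome biogenesis list were called near the background, 9 higher and 11 lower, or 4 and 7 without IL-10 positive replicate 4, 4 and 9 without IL-10 negative replicate 5 and 7 each way without IL-10 positive replicate 5.

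**Figure D4:**
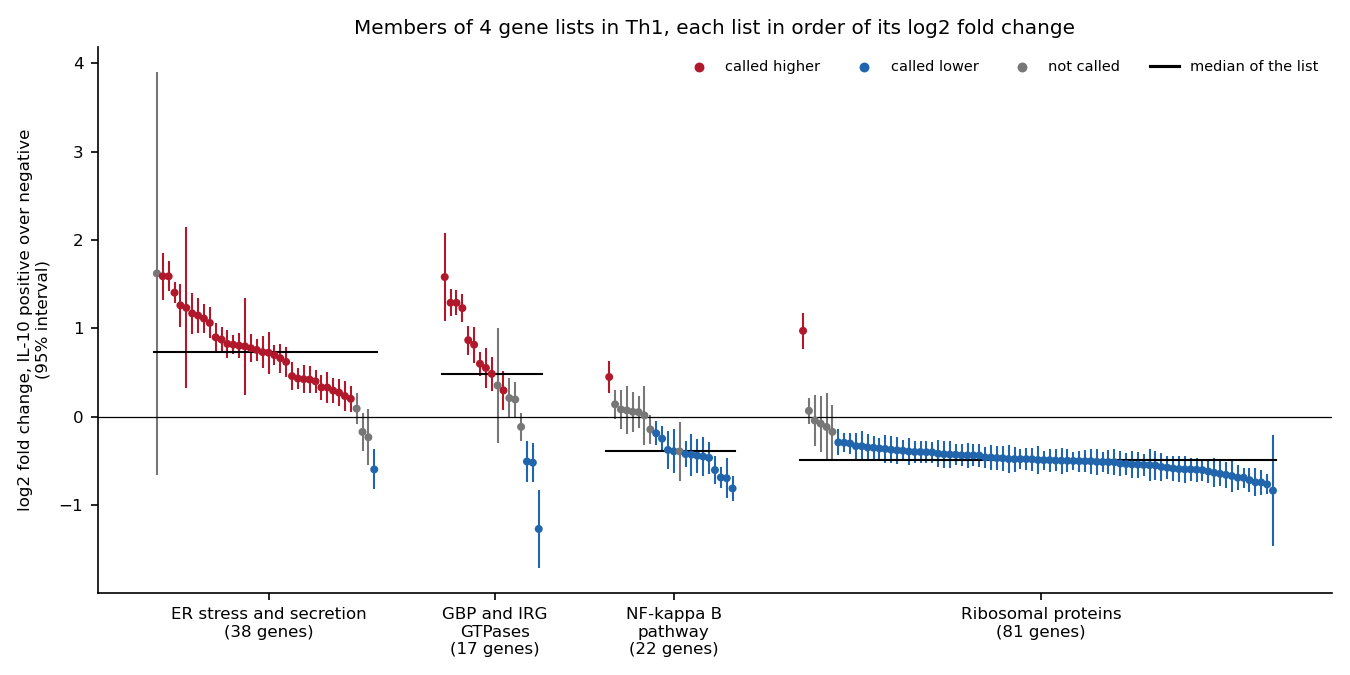
Log2 fold change of each tested member of 4 lists, Th1 IL-10 positive over negative, with 95% intervals and, as a black line, the list's median. Members called higher are red, called lower blue and not called grey. Ribosomal proteins lie in a narrow band below 0 around a median of -0.49, secretory pathway genes mostly above 0, and the GTPase list on both sides of it.

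Protein breakdown and energy metabolism rose modestly and broadly. Of 33 proteasome genes 27 were higher and 0 lower, at a median of 0.32. Psmd13, of the regulatory cap, had 169.9, 186.7 and 181.1 CPM in IL-10 positive against 131.4, 119.8 and 104.0 CPM in negative libraries. Pomp, which assembles the core, rose by 0.56 ± 0.07. Of 63 nuclear genes for the respiratory chain 45 were higher and 3 lower, at a median of 0.33, with Cox5a and Cox17 at 1.05 ± 0.08 and 1.05 ± 0.10 and the complex I subunit Ndufa6 among the exceptions at -0.46 ± 0.09. In glycolysis 15 of 26 rose and 2 fell, or 4 in the fit of the 6 Th1 libraries alone. Hk2, the first enzyme of glycolysis, led them with 73.9, 66.3 and 70.7 CPM in positive against 11.4, 10.8 and 10.1 CPM in negative libraries, and the glucose carriers Slc2a1 and Slc2a3 rose by 1.31 ± 0.10 and 1.16 ± 0.09. Pdk1, which inhibits pyruvate dehydrogenase and so limits the entry of pyruvate carbon into the citric acid cycle, fell by 0.53 ± 0.06. In the citric acid cycle list 19 of 32 were higher and 3 lower, with the cytosolic enzyme Idh1 at 1.39 ± 0.15.

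Most genes of cholesterol synthesis and uptake rose, and fatty acid genes were called both ways. Scd1, a fatty acid desaturase, had 57.4, 63.4 and 67.0 CPM in IL-10 positive against 7.06, 6.92 and 7.81 CPM in negative libraries, and Scd2 rose by 1.5 ± 0.10. The fatty acid binding protein Fabp5 and the desaturase Fads2 rose by 2.14 ± 0.15 and 2.09 ± 0.19, while the elongase Elovl5 fell by 0.46 ± 0.06. In the cholesterol pathway Acat2, Hsd17b7 and Fdps rose by 1.60 ± 0.09, 1.64 ± 0.15 and 1.52 ± 0.07, and the median of the 26 tested was 1.12. The fatty acid list had 14 higher and 5 lower of 33, or 15 and 2 without IL-10 negative replicate 5 and also without the filter on low counts. Ahcy, which clears S-adenosylhomocysteine after methylation, rose to 802.4, 744.6 and 762.5 CPM in positive libraries, against 279.7, 271.6 and 276.5 CPM in negative ones.

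Metallothioneins, small metal-binding proteins induced by zinc and glucocorticoids, rose steeply. Their 3 tested genes lie side by side on chromosome 8, Mt3 from 94152607 to 94154148, Mt2 from 94172618 to 94173567 and Mt1 from 94178883 to 94180327. Mt3, best known from brain, had 31.9, 29.4 and 24.1 CPM in IL-10 positive against 0.830, 0.805 and 0.568 CPM in negative libraries (log2 fold change 5.27 ± 0.32, SE; edgeR adjusted p = 5.54e-15). Mt1 had 40.1, 48.3 and 49.2 CPM in positive against 4.77, 1.93 and 4.26 CPM in negative libraries, and Mt2 differed by 4.47 ± 0.51. The compartments did not overlap for any of the 3. Per transcript length (TPM, a level scaled by transcript length) the order in positive libraries was Mt1 at 174, Mt3 at 109 and Mt2 at 32.7 on average. Of the zinc carriers, Slc39a4 and Slc39a8 rose by 0.94 ± 0.13 and 0.92 ± 0.13, and Slc39a3 fell by 0.46 ± 0.14. Redox genes divided: the thiol proteins Glrx and Txn1 and the haem oxygenase Hmox1 rose by 2.05 ± 0.08, 1.41 ± 0.07 and 1.52 ± 0.17. The antioxidant regulator Nfe2l2 (NRF2) and the redox gene Gclc fell by 1.15 ± 0.09 and 1.11 ± 0.22, and Prdx6 by 1.00 ± 0.07.

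The interferon gamma axis showed lower receptor transcripts with higher levels of many, not all, of its target genes. Interferon gamma binds a receptor of 2 chains, Ifngr1 and Ifngr2, and loss of the Ifngr2 chain is a known feature of Th1 cells. Ifngr2, on chromosome 16 from 91547059 to 91564007, had 0.575, 0.906 and 0.752 CPM in IL-10 positive against 8.51, 9.02 and 7.95 CPM in negative libraries. That is 11-fold lower in positive cells (log2 fold change -3.46 ± 0.21, SE; edgeR adjusted p = 1.82e-16), and no library was intermediate. Ifngr1, on chromosome 10 from 19591949 to 19610229, had 748.6, 750.4 and 705.8 CPM in positive against 1304, 1287 and 1208 CPM in negative libraries. Per length, Ifngr1 averaged 590 TPM in positive and 1038 TPM in negative libraries, and Ifngr2 0.607 TPM in positive and 7.07 TPM in negative libraries. Ifnar2, a chain of the type I interferon receptor, also fell, to 47.8, 47.1 and 44.7 CPM in positive libraries, against 110.6, 100 and 100 CPM in negative ones. Ifng itself rose by 2.95 ± 0.12.

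The guanylate binding proteins (GBPs) and immunity-related GTPases, which attack microbial vacuoles and are textbook targets of interferon gamma, mostly rose. Of 17 tested 10 were higher and 3 lower, with a median of 0.48. Gbp2, on chromosome 3 from 142620663 to 142638008, was among the most abundant genes of both compartments, at 7582, 7755 and 7424 CPM in IL-10 positive against 3327, 3224 and 3168 CPM in negative libraries (log2 fold change 1.23 ± 0.08; edgeR adjusted p = 2.44e-16). Gbp7 had 815.3, 769.2 and 724.5 CPM in positive against 313.8, 326.5 and 304.9 CPM in negative libraries, and Gbp4 rose by 1.29 ± 0.07. Gbp9, Gbp10 and Tgtp2 went the other way, by -0.51 ± 0.11, -1.27 ± 0.22 and -0.52 ± 0.11. These families hold near-identical copies between which RSEM divides reads by an estimate, so the split among members is uncertain.

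All 9 GBP and IRG promoters that matched by symbol held the interferon regulatory factor (IRF) motif, a pair of GAAA blocks spaced by a pair of free bases, on either strand within 250 bases before the start site, against 2.7% of all 9365. The motif was in 10 of 25 matched promoters of the interferon-stimulated list (40.0%), in 3.5% of promoters of genes called higher and in 2.9% of those called lower. The 5 promoters of genes called higher are shown, with the matched bases in capitals (overlapping matches joined in Gbp3). They lie at chr3:142530268-142530307 (plus), chr3:142620589-142620628 (plus), chr3:142559990-142560029 (plus), chr11:58199507-58199546 (plus) and chr11:48992299-48992338 (minus), and are from RefSeq for GRCm38.p6, 5′ to 3′ along the gene.
Gbp7: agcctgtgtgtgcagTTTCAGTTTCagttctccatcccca
Gbp2: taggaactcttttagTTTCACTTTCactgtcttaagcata
Gbp3: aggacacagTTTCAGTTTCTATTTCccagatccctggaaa
Igtp: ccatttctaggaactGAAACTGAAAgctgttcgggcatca
Tgtp1: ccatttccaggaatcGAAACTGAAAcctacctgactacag
The match ended between 25 and 68 bases before the start site in these 5. Of the 3 members called lower, Tgtp2 was the one with a matched promoter, and it held the motif too.

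Interferon-stimulated genes as a whole were called both ways, 14 higher and 6 lower of 34 (median 0.20). Oas3, a sensor of double-stranded RNA, had 93.8, 83.9 and 87.7 CPM in IL-10 positive against 27.8, 31.7 and 36.8 CPM in negative libraries, and Ifit1 and Isg20 rose by 1.01 ± 0.22 and 0.86 ± 0.18. Irf7, the factor that amplifies type I interferon, fell to 21.7, 18.7 and 21.8 CPM in positive libraries, against 36.1, 44.3 and 47.9 CPM in negative ones. Irf8, another member of the same factor family, rose by 1.61 ± 0.08. In class I presentation, the loading chaperones Calr and Pdia3 rose by 0.87 ± 0.07 and 0.59 ± 0.06 and the proteasome activator Psme2 by 0.56 ± 0.07. The class I heavy chain H2-K1 fell by 0.44 ± 0.05 and its transactivator Nlrc5 by 0.51 ± 0.08, while the interval of H2-D1 lay within 0.2 of 0. Among 21 STAT and SOCS genes 3 were higher and 7 lower, or 5 and 4 by DESeq2 or without the filter on low counts. Cish, a feedback inhibitor induced through STAT5, rose to 93.2, 85.9 and 96.8 CPM in positive libraries, against 22, 18.2 and 15.6 CPM in negative ones. Socs3 fell by 0.44 ± 0.08.

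Secreted mediators and the receptors for them were reset in both directions. Csf1, the macrophage growth factor, had 116.1, 99.6 and 102.0 CPM in IL-10 positive against 18.1, 13.2 and 13.5 CPM in negative libraries (log2 fold change 2.85 ± 0.12; edgeR adjusted p = 1.87e-21). The chemokines Ccl4 and Ccl3 rose by 2.93 ± 0.14 and 2.03 ± 0.20. Il21 rose by 1.48 ± 0.12 and Il16 fell by 0.52 ± 0.06. Cxcr3, the chemokine receptor that marks Th1 cells and draws them to interferon-induced chemokines, lies on the X chromosome from 101731535 to 101734147. It had 2.45, 2.38 and 2.88 CPM in positive against 25.1, 28.8 and 25.0 CPM in negative libraries, which is 10.2-fold lower in positive cells (edgeR adjusted p = 1.15e-18). It was the only one of the 8 Th1 markers called lower. Ccr2, which follows monocyte chemokines, rose by 3.23 ± 0.15, and S1pr1, which lets T cells leave lymph nodes, fell by 0.93 ± 0.08. In the whole list of 25 chemokine and lysophospholipid receptors 13 were higher and 5 lower.

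Cytokine receptors divided by ligand, with 12 higher and 11 lower of 31. The receptors of IL-2 (Il2ra, 1.72 ± 0.06), IL-12 (Il12rb1, 1.84 ± 0.07), IL-7 (Il7r, 1.52 ± 0.10), IL-21 (Il21r, 1.06 ± 0.06) and IL-33 (Il1rl1, 2.64 ± 0.24) rose. Il1rl1, known on Th2 and regulatory cells, had 28.1, 28.1 and 26.7 CPM in IL-10 positive against 3.74, 4.67 and 4.69 CPM in negative libraries. The IL-6 receptor fell in both chains, with Il6ra at 4.46, 5.66 and 6.39 CPM in positive against 39.2, 29.1 and 34.7 CPM in negative libraries and Il6st at -0.86 ± 0.10. The groups were separate for each of these genes. TNF family ligands were likewise opposed: Tnfsf9 and Fasl rose by 1.49 ± 0.16 and 1.42 ± 0.16, and Tnfsf8 and Tnfsf4, ligands of CD30 and OX40, fell. Tnfsf8 had 12.2, 14.3 and 11.5 CPM in positive against 83.8, 95.3 and 93.3 CPM in negative libraries. Their receptor side rose for Tnfrsf9 (1.62 ± 0.07), Tnfrsf1b (1.40 ± 0.08) and Tnfrsf4 (0.66 ± 0.07). Fas and Tnfrsf25 fell by 0.48 ± 0.09 and 0.54 ± 0.08.

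Transcription factors of effector differentiation were called both ways, and those of resting cells were more often lower. Of 33 lineage and effector factors 13 were higher and 8 lower, or 13 and 5 without IL-10 negative replicate 5. Zbtb32, a zinc finger repressor, had 158.5, 171.2 and 169.2 CPM in IL-10 positive against 25.1, 20.6 and 18.2 CPM in negative libraries (log2 fold change 2.98 ± 0.12; edgeR adjusted p = 9.79e-22). Hlx, a partner of T-bet, and Nfil3 rose by 2.68 ± 0.25 and 1.82 ± 0.16, and Bhlhe40, a regulator of cytokine genes, by 1.33 ± 0.09. Bcl6, the factor of follicular helper cells, fell by 1.36 ± 0.10 and Id3 by 2.28 ± 0.17. Of 27 factors of the resting state 15 were lower and 4 higher. Myb had 3.60, 4.53 and 7.64 CPM in positive against 36.7, 32.5 and 36.9 CPM in negative libraries, and the RNA-binding repressor Zfp36l2 fell by 1.08 ± 0.09. Klf6 and Klf7 were among the 4 exceptions at 0.74 ± 0.10 and 0.77 ± 0.17.

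Immediate early and NF-kappa B genes, which respond within minutes to hours of receptor signals, were more often lower than higher. Of 28 AP-1, NFAT, EGR and NR4A genes 15 were lower and 6 higher, or 11 and 6 without the filter on low counts. Nr4a1, often used as a readout of recent T cell receptor signals, had 152.8, 153.5 and 151.9 CPM in IL-10 positive against 245.5, 264.5 and 260.2 CPM in negative libraries. Fos and Fosb fell by 0.96 ± 0.13 and 1.27 ± 0.17, and Cd69, an early activation marker, fell to 36.0, 36.1 and 34.0 CPM in positive libraries, against 164.4, 159.1 and 175.0 CPM in negative ones. Nfatc2 and Batf rose by 0.92 ± 0.10 and 0.76 ± 0.09. Of 22 NF-kappa B genes 13 were lower and 1 higher, at a median of -0.39, or 10 and 1 without that filter. The inhibitor Nfkbia, itself a target of the pathway, had 311.4, 300.3 and 271.8 CPM in positive against 545.8, 520.0 and 487.9 CPM in negative libraries. Tnfaip3, Traf1 and Relb fell by 0.70 ± 0.11, 0.69 ± 0.06 and 0.47 ± 0.09. The gene called higher was another inhibitor, Nfkbib (0.45 ± 0.09).

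Signalling components downstream of the T cell receptor were called in both directions, 19 higher and 15 lower of 46. The adaptors Themis and Pag1 rose by 1.27 ± 0.06 and 1.34 ± 0.10, and Icos, a costimulatory receptor, by 1.01 ± 0.06. Sh2d2a, Fyn and Plcg1 fell by 0.60 ± 0.06, 0.60 ± 0.08 and 0.58 ± 0.09. The PI3K and mTOR list was lower in 17 and higher in 7 of 35. Inpp4b, a lipid phosphatase that ends PI3K signals, had 37.1, 31.9 and 38.3 CPM in IL-10 positive against 169.5, 155.7 and 177.3 CPM in negative libraries. Other brakes on the pathway fell as well, Phlpp1 by 1.71 ± 0.18 and Pik3ip1 by 1.24 ± 0.08, and the catalytic subunit Pik3cg rose by 1.93 ± 0.12. Smad3, the carrier of TGF-beta signals, had 8.92, 7.81 and 8.52 CPM in positive against 52.7, 57.8 and 55.8 CPM in negative libraries, and the corepressor Tgif1 fell by 1.39 ± 0.14. Of the 29 genes of that pathway 10 were lower and 5 higher, or 3 higher without IL-10 positive replicate 6, with the ligand Tgfb3 at 2.13 ± 0.23.

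Most genes of the granule and actin lists rose, while adhesion genes were called both ways. Of 23 granule genes 20 were higher and 2 lower, the highest median of the lists named here (1.36). Markers of NK and CD8 T cells, which share granule genes, were higher in the same libraries, as given above, and their part in this count was not tested. Gzma, a granule protease, had 361.3, 351.4 and 350.9 CPM in IL-10 positive against 21.0, 25.1 and 17.3 CPM in negative libraries (log2 fold change 4.07 ± 0.19; edgeR adjusted p = 3.69e-20). Nkg7 and the lysosomal protease Ctsd rose by 1.36 ± 0.07 and 1.68 ± 0.06. The 2 lower genes were Lamp1, a lysosomal membrane protein, at 6.19, 6.11 and 7.14 CPM in positive against 29.5, 34.3 and 31.8 CPM in negative libraries, and Crtam, a receptor of cytotoxic CD4 cells. Crtam fell by 3.60 ± 0.59, or by 4.30 without IL-10 positive replicate 6. Of 53 actin and motility genes 36 were higher and 6 lower, including the abundant Actg1 (0.97 ± 0.05), Lcp1 (0.98 ± 0.05) and Vim (2.07 ± 0.06) and the myosin Myo1f (2.91 ± 0.10). S100a4, a calcium-binding protein of motile cells, had 112.2, 105.7 and 113.4 CPM in positive against 3.74, 3.54 and 4.55 CPM in negative libraries, and of its list of 20 galectins, S100 proteins and partners 15 were higher and 1 lower. Integrins and adhesion genes went both ways, 17 higher and 11 lower of 34, with Pecam1 at 47.3, 55.7 and 44.5 CPM in positive against 173.7, 176.0 and 169.4 CPM in negative libraries.

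Genes of cell division rose. Of 69 mitosis genes 66 were higher and 1 lower at a median of 1.12, and of 55 replication genes 50 were higher and 0 lower at 1.04. Aurka, a mitotic kinase, had 36.1, 34.0 and 43.5 CPM in positive against 11.2, 7.89 and 12.5 CPM in negative libraries, and the replication licensing factor Cdc6 had 26.6, 25.7 and 29.3 CPM in positive against 7.89, 4.35 and 6.68 CPM in negative libraries. Both were separate between the compartments. The exception was the condensin subunit Smc4, at 136.4, 137.5 and 146.4 CPM in positive against 273.7, 272.7 and 282.8 CPM in negative libraries (-0.98 ± 0.06). The brakes of the cycle moved apart: Cdkn1a (p21) rose by 2.79 ± 0.18 and Cdkn1b (p27) fell by 0.71 ± 0.11. Ccnd3 rose by 1.29 ± 0.06, and the stress-induced Sesn1 and Sesn3 fell by 1.24 ± 0.08 and 1.93 ± 0.13. The cell cycle homology element TTTGAA was in 22 of 59 matched mitosis promoters (37.3%) and 10.9% of all, and the E2F sites TTTCCCGC or TTTGGCGC in 10 of 47 matched replication promoters (21.3%) and 2.7% of all.

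Death regulators shifted with division. Pmaip1 (NOXA), a killer protein of the BCL-2 family, had 117.2, 113.5 and 113.0 CPM in IL-10 positive against 22.4, 23.3 and 18.5 CPM in negative libraries (log2 fold change 2.43 ± 0.14; edgeR adjusted p = 3.68e-17). The survival genes Bcl2l1 and Bcl2a1d rose by 1.51 ± 0.08 and 2.16 ± 0.20, whereas Bcl2 and Mcl1 fell by 1.03 ± 0.08 and 0.42 ± 0.07. Of the 33 tested 18 were higher and 3 lower.

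Regulators of chromatin and RNA were more often lower. Of 63 chromatin enzymes 30 were lower and 11 higher, at a median of -0.19. The histone demethylase Kdm6b had 17.8, 15.1 and 17.2 CPM in IL-10 positive against 27.2, 38.2 and 33.7 CPM in negative libraries. The paralogous acetyltransferases Ep300 and Crebbp differed in opposite directions, 0.77 ± 0.07 and -0.77 ± 0.09, without overlap of the compartments in either. Chd7 rose by 0.96 ± 0.08 and Tet3 fell by 0.79 ± 0.08. Of 54 RNA decay and binding genes 23 were lower and 9 higher, or 16 and 11 without the filter on low counts. Among them Zfp36l1 and the cold-inducible Cirbp stood at -0.89 ± 0.07 and -0.88 ± 0.12. Of 21 tested genes on the list of microRNA hosts and long noncoding RNAs, 0 were higher and 10 lower. By DESeq2 or with size factors by median of ratios, 2 were higher and 10 lower. Miat, a long noncoding RNA called higher, was not on this list. The growth arrest transcript Gas5, which has the same kind of start as ribosomal protein genes, had 95.7, 88.2 and 80.9 CPM in positive against 169.8, 167.6 and 153.0 CPM in negative libraries.

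Enzymes that build surface sugars were called both ways. St3gal6 and Fut7, which build selectin ligands, rose by 1.72 ± 0.15 and 1.59 ± 0.21, and Gcnt1, which branches the core of the same ligands, by 1.21 ± 0.15. St6gal1, which caps sugars with another sialic acid linkage, fell by 0.84 ± 0.10. Mgat5, which branches N-glycans, had 2.16, 1.47 and 2.76 CPM in IL-10 positive against 9.55, 9.98 and 13.6 CPM in negative libraries. Over the 52 tested the list had 18 higher (34.6%) and 12 lower (23.1%), against 23.5% and 20.4% of all tested genes.

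The mix of transcripts of a gene was compared as well as its level. RSEM reports for each gene a mean transcript length weighted by the estimated share of each transcript, so a change in it reflects a change in the mix. Of 1779 genes with more than 1 annotated length and at least 50 counts in every Th1 library, limma called 2 (0.112%), and 20 of 948 with at least 200 counts. Hnrnpa2b1, an RNA-binding protein, averaged lengths of 3085, 3122 and 3131 bases in IL-10 positive against 3438, 3441 and 3406 bases in negative libraries (log2 -0.14 ± 0.01, adjusted p = 0.0238). Sgms1, a sphingomyelin synthase, had 3321, 3338 and 3316 bases in positive against 3592, 3554 and 3544 bases in negative libraries (log2 -0.10 ± 0.01, adjusted p = 0.0238). Both lay outside the range of the other compartment. The count of calls was 0 without IL-10 positive replicate 4, IL-10 negative replicate 5 or IL-10 positive replicate 6, and to 1 without IL-10 positive replicate 5. Sgms1 was also called higher in level, by 1.30 ± 0.10.

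Where the Th1 difference departed from the rest of the series was tested next. It was set against the mean difference of the other 4 cultures, and 2769 of 12611 genes (22%) departed from it, 1468 upward (11.6%) and 1301 downward (10.3%). Without Tr1 IL-10 positive replicate 18 the split was 1827 upward and 1019 downward. The counts per list that follow are from the main fit alone. Of the ribosomal proteins 73 of 81 lay below the mean difference of the other 4 cultures and 0 above. Of the mitosis genes 47 of 69 lay below that mean and 2 above. Ribosomal protein medians were -0.49 in Th1, -0.16 in Tr1, -0.22 in Th2, 0.23 in Th17 and -0.26 in pTh17. Mitosis genes had a median of 1.12 in Th1, 3.54 in Tr1 and 3.21 in Th17, so the Th1 rise was the smaller one there, and 0.24 in Th2 and 0.48 in pTh17. Above the mean of the other cultures were 23 of 26 cholesterol genes and 20 of 38 secretory pathway genes. Also above it were 12 of 17 GBP and IRG genes and 20 of 34 interferon-stimulated genes. Each of these lists had 0 below. For interferon-stimulated genes the Th1 median was 0.20 and those of Tr1, Th2, Th17 and pTh17 were 0.04, -0.33, -1.21 and -0.34.

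**Figure D5:**
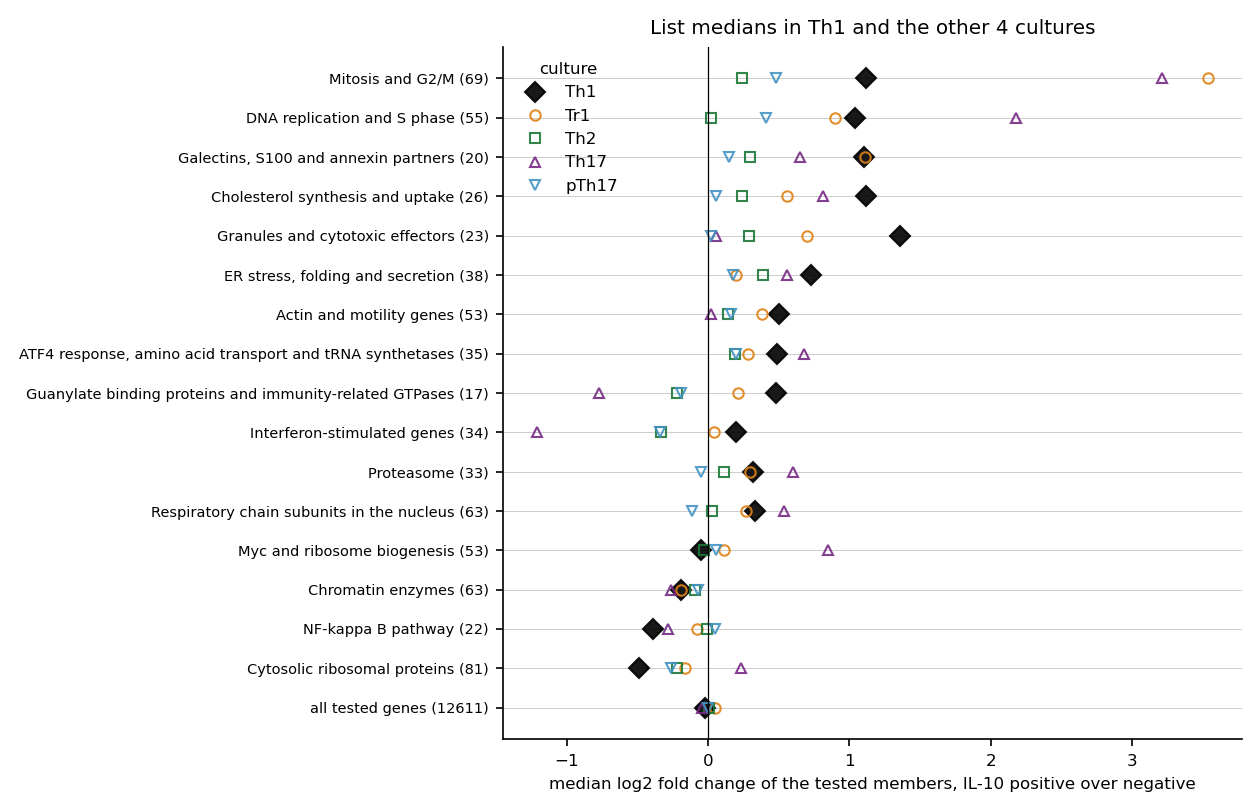
Median log2 fold change of the tested members of 16 lists and of all tested genes, IL-10 positive over negative, in Th1 (black diamonds), Tr1, Th2, Th17 and pTh17 cultures, with the number of genes in brackets. Th1 has the lowest ribosomal protein median (-0.49) and the highest GTPase median (0.48) of the 5 cultures, and its mitosis median (1.12) lies below those of Tr1 (3.54) and Th17 (3.21).

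Among single genes Cxcr3 departed from the mean of the other cultures by -3.39 ± 0.20 (log2, SE; edgeR adjusted p = 2.78e-16). Its own log2 fold change was -3.35 in Th1, 1.03 in Th2, 0.10 in Th17, -0.91 in pTh17 and -0.05 in Tr1. Smad3 departed by -2.34 ± 0.13, being -2.73 in Th1, -1.02 in Tr1 and within 0.30 of 0 in the other 3. Cux1, a homeodomain repressor, fell by 1.84 ± 0.11 in Th1 and lay between -0.42 and 0.32 elsewhere. In the other direction Gbp4 departed by 1.81 ± 0.08, with a log2 fold change of 1.29 in Th1 and -3.10 in Th17 cells; the Tr1, Th2 and pTh17 values were 0.54, 0.13 and 0.33. Csf1 departed by 2.45 ± 0.20 (edgeR adjusted p = 1.75e-12), but its log2 fold change was 2.83 in pTh17, near the 2.85 of Th1.

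Against Tr1, a culture made with IL-27, the Th1 difference departed for 2319 genes (18.4%), 907 upward (7.19%) and 1412 downward (11.2%). Without Rn45s, Kcnq1ot1 and Zfp488 in the scaling the split was 1304 upward and 1110 downward, and without Tr1 IL-10 positive replicate 18 it was 1126 and 975. Mitotic genes stood at the low end. Ccnb2, a mitotic cyclin, had 97.5, 101.2 and 105.3 CPM in Th1 IL-10 positive against 58.1, 46.7 and 56.4 CPM in Th1 IL-10 negative libraries (log2 0.92 ± 0.09), and its log2 fold change in Tr1 was 5.67, a departure of -4.75 ± 0.24 (edgeR adjusted p = 4.49e-18). Hspa5 departed upward by 0.92 ± 0.08, with -0.11 in Tr1, and Tnfrsf4 (OX40) downward by 1.87 ± 0.13, with 2.52 in Tr1.

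Against Th2, a culture made with IL-4, 2562 genes (20.3%) departed, 1563 upward (12.4%) and 999 downward (7.92%), or 1919 and 746 without the same 3 genes in the scaling. Lgals3, a galectin, had 1069, 1003 and 1062 CPM in Th1 IL-10 positive against 149.2, 137.0 and 124.4 CPM in Th1 IL-10 negative libraries, and departed from Th2 by 3.20 ± 0.10 (edgeR adjusted p = 5.17e-24). Its log2 fold change was 2.94 in Th1, -0.27 in Th2 and 3.65 in Tr1. Stom, a membrane scaffold protein, and Cish departed from Th2 by 3.27 ± 0.17 and 2.60 ± 0.13. Ifngr1 departed downward by 1.10 ± 0.08, being -0.79 in Th1 and 0.32 in Th2.

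In absolute terms, the genes called lower gave up 183059 CPM in sum and those called higher gained 165763 CPM. Rn45s alone differed by -79560 CPM (positive minus negative). The largest gain was that of Actg1 (15730, 15310 and 15370 CPM in IL-10 positive against 7947, 7872 and 7798 CPM in negative libraries), followed by Actb, Gbp2 and Gapdh. Tmsb4x, an actin-sequestering peptide, and Plac8 rose by 1.03 ± 0.07 and 1.46 ± 0.10. Ly6a (Sca-1), an interferon-inducible surface protein, had 4186, 4117 and 4217 CPM in positive against 2275, 2078 and 2118 CPM in negative libraries. CPM is a share of each library, so these sums do not show the amount of RNA per cell.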

How the data were processed

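Per the file headers and the submitters' processing notes, the authors deposited 1 RSEM gene table per library (mm10; the aligner is not given in the sources used here). Each holds expected counts, which the authors' RSEM run estimated by dividing reads that match several genes. TPM values, scaled by effective length and to a fixed sum, were deposited by the authors in the same tables and used here to compare levels between genes. FPKM values were deposited by the authors too and not used.

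Expected counts were rounded, filtered on low counts and scaled by TMM. One edgeR 4.0.16 quasi-likelihood fit (R 4.3.3) of 30 libraries gave each comparison, with Benjamini-Hochberg adjustment over 12611 genes, a threshold of 0.05 and 95% intervals. Errors are SE of the log2 fold change. Transcript length was tested with limma 3.58.1 on the log2 of the RSEM length. Alternatives were DESeq2 1.42.0, other scaling, no filter, a replicate block, the 6 Th1 libraries alone and each library left out. The code was tested on simulated data. Samples were grouped by title. The members and the 56 lists were chosen with earlier results of these data known. Genes were named by rule: the 15 largest changes each way with groups apart and at least 5 CPM, the 15 largest CPM gains and losses, up to 5 per list each way plus exceptions, the 10 most abundant stable genes, switch-like genes and the 12 smallest p each way between cultures. Genes outside it, such as printed promoters, were chosen after their values were seen. Counting error is the least error of any value. Results of a few withheld items are not reported here.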

Additional observations from a re-analysis of the deposited data

Results flagged for a closer look

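The Th1 difference between IL-10 positive and IL-10 negative cells departed from the mean difference of the other 4 cultures for 2769 genes by edgeR's test of the difference itself, at an adjusted p under 0.05. Genes named by the smallest p with a more positive log2 fold change in Th1 were Thy1 (1.57), Irf8 (1.46), Gbp4 (1.81), Prf1 (2.26), Ctsd (1.34) and Lgals3 (1.79). Also more positive were Ggt1 (2.56), Ms4a4b (1.44), Il21r (1.25), Mapkapk2 (1.60) and Trp53i11 (1.55). More negative in Th1 than the mean of the other cultures were Ccr7 (-2.77), Cxcr3 (-3.39), Tox (-2.65), Tcf7 (-2.84), Bach2 (-1.07) and Pecam1 (-1.40). Also more negative were Smad3 (-2.34), Igfbp4 (-3.11), Ephx1 (-2.24), Folr4 (-1.28), Cux1 (-1.84) and Lpxn (-1.36).

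The Th1 difference between IL-10 positive and IL-10 negative cells departed from the Tr1 difference for 2319 genes by edgeR's test of the difference itself, at an adjusted p under 0.05. On the same scale, more positive in Th1 than in Tr1 were Thy1 (1.47), Itpr1 (1.67), Ctsd (1.03), Mapkapk2 (1.90), Trp53i11 (2.15) and Tubb2a (2.90). Others on that side were Sgms1 (2.38), Cxcr1 (3.82), Itih5 (1.44), Cd81 (1.59), Gem (2.04) and Hspa5 (0.92). More negative in Th1 than in Tr1 were Ccr7 (-3.41), Cxcr3 (-3.30), Tcf7 (-3.38), Tnfrsf4 (-1.87), Ephx1 (-2.99) and Folr4 (-1.60). Others on the negative side were Ccna2 (-4.11), Ccnb2 (-4.75), Ube2c (-3.79), Top2a (-2.23), Mki67 (-2.58) and Nusap1 (-4.66).

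The Th1 difference between IL-10 positive and IL-10 negative cells departed from the Th2 difference for 2562 genes by edgeR's test of the difference itself, at an adjusted p under 0.05. More positive in Th1 than in Th2 were Csf1 (3.01), Cish (2.60), Entpd1 (2.62), Vim (1.77), S100a6 (2.04) and Lgals3 (3.20). To these were added Ms4a6b (1.58), Stom (3.27), Rasa3 (1.64), F2rl2 (2.76) and Fam20a (2.79). More negative in Th1 than in Th2 were Ccr7 (-2.39), Cxcr3 (-4.38), Ifngr1 (-1.10), Tcf7 (-1.88), Pecam1 (-1.58) and Sesn1 (-1.87). To the negative side belonged also Inpp4b (-1.56), Smad3 (-2.43), Igfbp4 (-2.96), Folr4 (-2.36), Lpxn (-1.58) and Ndrg3 (-1.35).

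Each value is the log2 fold change in Th1 minus that in the culture or cultures named, so a positive value does not by itself mean that the gene rose in Th1. Thy1 takes part in the sort. The 3 comparisons share the 6 Th1 libraries, so a gene met in more than 1 of them is not independent evidence. No Th1 group has more than 3 libraries, so single libraries were not screened for outlying values.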

How the results depend on the processing

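Of 517 named genes called in the Th1 comparison, 473 were called under all 13 alternatives, 44 lost the call under at least 1 and 0 reversed. The Th1 count was 2962 higher and 2567 lower, while size factors by median of ratios gave 3313 and 2214, DESeq2 gave 3205 and 2061, and keeping genes of low count gave 3247 and 2022. Against the other 4 cultures, 1468 genes departed upward and 1301 downward, or 1887 and 896 with low counts kept. Against Tr1 the upward count was 907, or 1576 with low counts kept, and the cause was not tested. The RSEM length comparison gave 2 genes, 20 with a minimum of 200 counts and 0 with a replicate block, and between 0 and 3 when a single Th1 library was left out. No shared effect of replicate number was detected. Over 7810 genes, deviations of same-numbered IL-10 positive and negative libraries had correlations of -0.005, -0.01 and -0.182. Libraries of different numbers had correlations of up to 0.194. With 3 libraries per group, these values cannot show whether same-numbered libraries came from one animal or culture. The replicate block gave 2946 higher and 2521 lower genes. On simulated Th1 changes over 11942 genes, 56% of changes of 1.5-fold and 86% of 2-fold were recovered. The simulation changed only a small set of genes, whereas 5529 were called in these data. Its shares therefore need not hold here, and the effect of depth was not tested. Small differences may still have been missed. Paralogs, overlapping genes and antisense partners cannot be told apart in counts without stated strand.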
